A study of Mus musculus with 8 samples.

Results

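The genes of oxidative phosphorylation were taken as every protein-coding row of the count table whose name begins like a subunit of complexes I to V (Nduf a, b, c, s or v, Sdha to Sdhd, Uqcr, Cox4 to Cox8, Atp5, and the mitochondrial mt-Nd, mt-Co, mt-Atp and mt-Cytb genes). This rule gave 94 of 27277 rows, of which 81 lie on nuclear chromosomes and 13 on the mitochondrial genome. All libraries are of mouse primary hepatocytes, the metabolic cells of the liver, isolated by digestion, cultured for 24 h and given 100 nM glucagon, a fasting hormone, for 12 h. Control cells (Lcmr1 f/f) carried the floxed gene without a recombinase, and knockout cells (Lcmr1 f/f with albumin-cre) carried the same allele and a Cre driven by the albumin promoter, which acts in hepatocytes. Lcmr1 is now called Med19 and encodes part of Mediator, which carries signals from transcription factors to RNA polymerase II. The RNA data are 3 libraries per genotype, and the chromatin immunoprecipitation (ChIP) data 1 library per genotype. All groups received glucagon, so no value below describes the response to it. Age, sex and the number of animals are not given in the labels, and they do not state whether replicates stem from different mice, so the p-values reflect the spread among these libraries, some of which may be technical.

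Oxidative phosphorylation makes most of the ATP of a resting hepatocyte. Complex I takes electrons from NADH and complex II from succinate, and both pass them through ubiquinone to complex III, cytochrome c and complex IV, which reduces oxygen. The proton gradient built on the way drives complex V, the ATP synthase. The subunits are encoded in both genomes: the mitochondrial genome encodes a small core of complexes I, III, IV and V and is transcribed by its own polymerase, while all of complex II and most other subunits come from nuclear genes transcribed by RNA polymerase II.

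Sequences of 4 promoters are shown because the RNA and ChIP results meet there. Each belongs to a nuclear gene whose RNA rose in the knockout libraries. The Atp5s, Cox6a1 and Ndufa7 promoters are those with the highest ChIP enrichment in the control list among such genes whose start in RefSeq lies at most 23 bases from the deposited one. Cox8a is shown beside them as a gene that rose without a ChIP region. All 4 were chosen after their values were seen. The 23 bases are the largest distance among them and not a limit set beforehand. Atp5b and Atp5a1, which also rose, had enrichments of 7.88 and 7.73, above the 6.43 of Ndufa7, and are not shown. The 250 bases before the start in RefSeq (GRCm38.p6, the assembly of mm10) are given 5′ to 3′ on the strand of the gene. Capitals mark matches to the motifs listed with the ChIP results.
Atp5s (chr12:69724695-69724944, plus strand): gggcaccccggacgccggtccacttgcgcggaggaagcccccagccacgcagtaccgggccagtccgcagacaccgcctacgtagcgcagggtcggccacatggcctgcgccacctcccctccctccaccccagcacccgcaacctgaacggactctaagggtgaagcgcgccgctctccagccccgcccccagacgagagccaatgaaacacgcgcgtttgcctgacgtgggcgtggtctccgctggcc
Cox6a1 (chr5:115348959-115349208, minus strand): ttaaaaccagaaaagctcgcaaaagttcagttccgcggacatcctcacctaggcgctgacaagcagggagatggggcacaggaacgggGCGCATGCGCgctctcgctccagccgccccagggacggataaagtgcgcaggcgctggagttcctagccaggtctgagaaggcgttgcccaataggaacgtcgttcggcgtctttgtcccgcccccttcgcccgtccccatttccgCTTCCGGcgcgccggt
Ndufa7 (chr17:33824322-33824571, plus strand): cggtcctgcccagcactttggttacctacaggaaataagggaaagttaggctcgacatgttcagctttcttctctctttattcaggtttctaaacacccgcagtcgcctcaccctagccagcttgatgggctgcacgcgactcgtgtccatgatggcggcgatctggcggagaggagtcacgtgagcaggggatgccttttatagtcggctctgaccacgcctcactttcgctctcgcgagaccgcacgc
Cox8a (chr19:7217617-7217866, minus strand): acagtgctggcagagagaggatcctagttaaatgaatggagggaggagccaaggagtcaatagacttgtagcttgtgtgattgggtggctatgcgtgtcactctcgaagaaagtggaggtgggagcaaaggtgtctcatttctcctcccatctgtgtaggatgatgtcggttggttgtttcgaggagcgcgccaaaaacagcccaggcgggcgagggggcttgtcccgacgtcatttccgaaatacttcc
Only the Cox6a1 stretch holds a match, an NRF1 core read on both strands 162 to 153 bases before the start and an ETS element 16 to 10 bases before it. In the Cox8a promoter an ETS element spans the start itself and is not capitalised.

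Total gene counts ranged from 22191786 to 26595249 per RNA library, and 15135 genes passed the filter on low counts. Levels are CPM, counts relative to the library size after TMM scaling, a method that sets the typical gene equal between libraries, with factors of 0.7725 to 0.8375 in the controls, against 1.196 to 1.269 in the knockouts. This scaling matters for every direction below: the median log2 fold change of all tested genes was 0.01 with it and 0.60 with library size alone. Med19 was read in every library as a check of the labels: control counts were 154, 226 and 248, and knockout counts 90, 166 and 97. It fell by 1.50 on the log2 scale (SE 0.31, adjusted p = 0.012, edgeR quasi-likelihood test), and without knockout replicate 1 the change was -1.35 with an adjusted p of 0.0505. The hepatocyte label was checked against 10 markers, whose summed level was 111505 to 114791 CPM in the controls, against 28987 to 38043 CPM in the knockouts. Of them 8 fell (13.0% of all tested genes did so), among them albumin (Alb), at -2.21 on the log2 scale. Of 14 macrophage markers 11 rose (12.6% of all tested genes), with sums of 444 to 536 CPM in the controls, against 879 to 1045 CPM in the knockouts. With library size alone 5 hepatocyte markers fell and 1 rose, and all 14 macrophage markers rose. In that fit 4.08% of all tested genes fell and 50.9% rose. With TMM scaling 1 of 10 endothelial and 1 of 10 stellate markers rose and 1 of 5 erythroid markers fell. No bile duct or lymphocyte and neutrophil marker was called. In bulk RNA, fewer cells of a type and less RNA per cell cannot be told apart, and the part of these shifts in the values below was not tested.

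Nuclear subunit genes rose in the knockout libraries as a minority of their number and by small steps. Of 78 nuclear members tested, 24 rose and 0 fell at an adjusted p under 0.05 in the edgeR quasi-likelihood test (glmQLFTest, Benjamini-Hochberg over all tested genes), against 12.6% of all tested genes that rose and 13.0% that fell. Their median log2 fold change was 0.24, with 66 above 0, beside 0.01 for all genes. In the other direction, 0 nuclear members had an unadjusted p under 0.05 and 0 were called by DESeq2, while 36 had an unadjusted p under 0.05 on the higher side and DESeq2 called 21. All 3 knockout libraries stood above all 3 controls for 43 of the 78 (23.5% of all tested genes did so), and below them for 1, Cox7a2l (22.4% of all tested genes). The authors' deposited table marks 21 of the nuclear members as higher and 0 as lower at the same threshold. The count depended on single libraries: 24 rose without control replicate 1, 8 without control replicate 2, 9 without control replicate 3, 7 without knockout replicate 1, 16 without knockout replicate 2 and 10 without knockout replicate 3. The 7 genes called in each of these 6 fits were Ndufc1, Ndufs1, Uqcr10, Cox6b2, Cox7a1, Cox8a and Atp5s, and Ndufv2 was called in none of them. Ndufs4, Ndufv2, Cox7c and Atp5k were not called by DESeq2 (adjusted p 0.0592, 0.065, 0.0501 and 0.0557). With library size alone as the scale, 75 rose (50.9% of all tested genes) and 0 fell (4.08% of all tested genes).

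**Figure D1:**
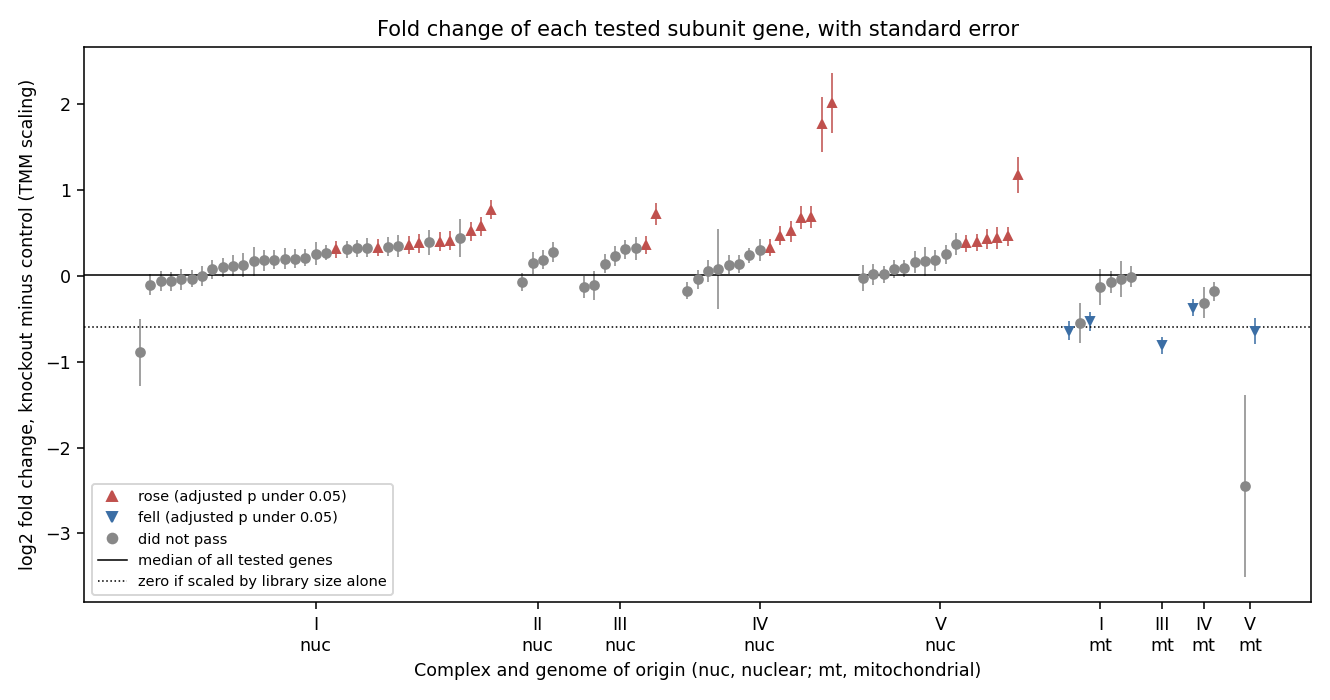
Log2 fold change (knockout minus control, TMM scaling) of each tested member with its standard error (3 libraries per genotype), grouped by complex and genome of origin. Nuclear genes lie mostly above the solid line (the median of all genes, 0.01) and the 13 mitochondrial genes below it; measured from the dotted line, the zero of scaling by library size alone, 4 mitochondrial genes rose and 0 fell.

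In complex I, the NADH dehydrogenase, 9 of 35 nuclear members rose and the median log2 fold change was 0.26. Ndufc1, an accessory subunit of the membrane arm (chromosome 3, 51404677 to 51408988, minus strand, mm10), had 28.6, 27.9 and 30.0 CPM in the controls, against 52.7, 45.2 and 49.3 CPM in the knockouts. Every knockout library was above every control, and the log2 difference came to 0.77 (SE 0.11, edgeR adjusted p = 0.00264). Ndufs1, the largest core subunit, which carries iron-sulphur clusters (chromosome 1, 63143596 to 63176833, minus strand), had 66.2, 82.3 and 73.6 CPM in the controls, against 112, 110.3 and 111 CPM in the knockouts. Its groups were also apart, at 0.58 (SE 0.11, edgeR adjusted p = 0.00854). The antisense RNA gene Ino80dos shares 44.2% of the Ndufs1 span, and because the strand setting of the counting is not given, reads of both cannot be told apart. The other 7 that rose were Ndufa7 (0.52), Ndufc2 (0.41), Ndufa9 (0.40), Ndufb11 (0.38), Ndufb3 (0.36), Ndufs4 (0.33) and Ndufv2 (0.31). Of these, Ndufv2 and Ndufs4 belong to the NADH-oxidising arm, while Ndufc2, Ndufb11 and Ndufb3 are accessory subunits of the membrane arm.

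Of the complex I members that did not pass, the flavoprotein gene Ndufv1, which takes up the electrons of NADH, had 208, 216 and 205 CPM in the controls, against 274, 243 and 262 CPM in the knockouts. Its groups were apart, but its log2 fold change of 0.31 stayed short of the threshold (SE 0.10, edgeR adjusted p = 0.0635). The iron-sulphur subunits Ndufs7 and Ndufs8, which hand electrons on towards ubiquinone, had 0.00 and -0.04. Ndufs3, another core subunit, was counted at only 53 to 108 reads in the controls, against 51 to 85 in the knockouts and had -0.89 (SE 0.39, edgeR adjusted p = 0.127). Core and accessory subunits were thus found both among the genes that rose and among those that did not pass.

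None of the 4 genes of complex II, succinate dehydrogenase, passed the test, and their median was 0.17. Sdha, the flavoprotein subunit that also works in the TCA cycle (chromosome 13, 74322254 to 74350280, minus strand), had 623, 795 and 716 CPM in the controls, against 888, 873 and 834 CPM in the knockouts. These groups did not overlap, but the controls were spread, and the log2 fold change of 0.28 did not pass (SE 0.12, edgeR adjusted p = 0.128). The iron-sulphur subunit Sdhb had -0.07, and the membrane anchors Sdhc and Sdhd had 0.19 and 0.15. With library size as the only scale, all 4 passed as higher, beside 50.9% of all tested genes. Their median was then 0.76, beside 0.60 for all tested genes.

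In complex III, the cytochrome bc1 complex, 2 of 8 nuclear members rose, with a median of 0.27. Uqcr10, a small subunit (chromosome 11, 4701973 to 4704342, minus strand), had 122, 97.5 and 112 CPM in the controls, against 204, 161 and 179.6 CPM in the knockouts. The lowest knockout library was above the highest control, with a log2 fold change of 0.72 (SE 0.13, edgeR adjusted p = 0.00822). Uqcrfs1, the Rieske iron-sulphur protein (chromosome 13, 30540308 to 30545362, minus strand), had 195, 191 and 196 CPM in the controls, against 263, 231 and 253 CPM in the knockouts. It rose by 0.36 (SE 0.10, edgeR adjusted p = 0.0387), a call that held only without control replicate 1 among the fits that left out a library, with adjusted p from 0.0283 to 0.151. The large core proteins Uqcrc1 and Uqcrc2 had -0.11 and 0.14. Uqcrq, the nuclear member of complex III with the most counts (chromosome 11, 53427922 to 53430831, minus strand), had 363, 346 and 404 CPM in the controls, against 381, 302 and 333 CPM in the knockouts. Its groups overlapped, and its log2 fold change of -0.13 (SE 0.13, edgeR adjusted p = 0.477) became 0.46 with library size alone.

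Complex IV, cytochrome c oxidase, held 18 nuclear members with Ndufa4, which is now counted among its subunits, and its paralogue Ndufa4l2. Of 15 tested, 7 rose and the median was 0.30. Several subunits of complex IV exist in a common form and in forms known from other tissues, and both kinds were measured. Cox6a1, the common form of subunit VIa, with the most counts of any nuclear member of the complex (chromosome 5, 115345642 to 115348981, minus strand), had 597, 545 and 569 CPM in the controls, against 906, 734 and 811 CPM in the knockouts. It rose by 0.52 (SE 0.12, edgeR adjusted p = 0.0178), with no overlap of the groups, and was called in 2 of the 6 fits that left out a library (without control replicate 1 or knockout replicate 2). Cox8a, also a common form, had 194, 160.2 and 183 CPM in the controls, against 325, 254 and 291 CPM in the knockouts, a log2 fold change of 0.69 (SE 0.13, edgeR adjusted p = 0.00907). Cox7a2 (0.68), Cox6b1 (0.47) and Cox7c (0.33), which assemble around the same catalytic core, rose as well. Cox7c was called in only 1 of the 6 fits that left out a library. The isoform Cox4i1, which joins early in assembly, had 0.06 (edgeR adjusted p = 0.782), and Ndufa4 had -0.04.

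The largest rises among all tested members belonged to rare isoforms of complex IV. Cox6b2, known from testis (chromosome 7, 4751792 to 4753094, minus strand), was counted at 8, 6 and 5 reads in the controls, against 33, 44 and 46 in the knockouts. It rose by 2.02 (SE 0.35, edgeR adjusted p = 0.00607), from 0.315 ± 0.0652 to 1.30 ± 0.203 CPM (SD, n = 3). Cox7a1, known from heart and skeletal muscle (chromosome 7, 30184144 to 30186078, plus strand), was counted at 24, 21 and 12 reads and at 94, 83 and 128 reads. It rose by 1.77 (SE 0.32, edgeR adjusted p = 0.00695). In both genes every knockout library was above every control, at levels of only a few CPM. The 3 untested members were of the same kind: Cox8b was counted at 0, 1 and 0 reads in the controls, against 12, 11 and 3 in the knockouts, Cox6a2 at 0, 2 and 0 against 7, 2 and 5, and Cox4i2 at 4, 1 and 3 against 9, 14 and 2. Cox6a2 lies wholly within Itgad on the opposite strand. Of 5 markers of skeletal muscle, a tissue named above for Cox7a1, 1 was tested and did not pass. Their summed level was 0.377 to 1.91 CPM in the controls, against 0.921 to 1.5 CPM in the knockouts. Acta1 and Tnnt3 were at 0 in all controls. Of 10 endothelial markers 1 rose and 0 fell (median 0.41), and of 10 stellate markers 1 rose and 0 fell (median 0.52). Over all tested genes 12.6% rose. The part of other cell types in the counts of these isoforms was not tested. Cox7a2l, which takes part in joining complexes III and IV, was the 1 nuclear member whose knockout libraries all lay below the controls, at -0.17 (edgeR adjusted p = 0.265).

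In complex V, 6 of 16 nuclear members rose, with a median of 0.21. The catalytic beta subunit Atp5b (chromosome 10, 128083273 to 128090391, plus strand), with the most counts of any nuclear member, had 1395, 1430 and 1335 CPM in the controls, against 1916, 1799 and 1742 CPM in the knockouts. The alpha subunit Atp5a1 (chromosome 18, 77773729 to 77782869, plus strand), its partner in the catalytic head, had 1188, 1275 and 1249 CPM against 1771, 1590 and 1731 CPM. Both rose, by 0.39 (SE 0.10, edgeR adjusted p = 0.0293) and 0.46 (SE 0.11, edgeR adjusted p = 0.018), and in both the groups were apart. Of the 6 fits that left out a library, Atp5b was called in 1 (without control replicate 1) and Atp5a1 in 2 (without control replicate 1 or knockout replicate 2), with adjusted p up to 0.13 and 0.0856. The third part of the head, the gamma subunit Atp5c1 in the rotating stalk, had 0.08, and the delta and epsilon subunits Atp5d and Atp5e had 0.16 and 0.18, none of which passed. In the peripheral stalk Atp5f1 rose by 0.38, while Atp5o, Atp5h and Atp5j had 0.25, 0.02 and 0.09 and did not pass. On the opposite strand Itsn1 shares 77.4% of the Atp5o span and Cbarp 30.7% of the Atp5d span. Cryzl1 on the same strand shares 16.0% of the Atp5o span. With the strand setting not given, reads of these genes may not be told apart. The 3 genes of the proton-carrying c ring, which encode the same mature protein, had -0.02 (Atp5g1), 0.02 (Atp5g2) and 0.37 (Atp5g3), with none past the test. Atp5j2 (0.43) and Atp5k (0.44), small subunits of the membrane part, rose. Atp5s (chromosome 12, 69724950 to 69744660, plus strand), named factor B and now called Dmac2l in RefSeq, had 5.55, 4.39 and 3.39 CPM in the controls, against 9.78, 9.91 and 10.5 CPM in the knockouts. It rose by 1.18 (SE 0.21, edgeR adjusted p = 0.00688), the largest change of a nuclear member with 1000 or more counts in all libraries together.

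**Figure D2:**
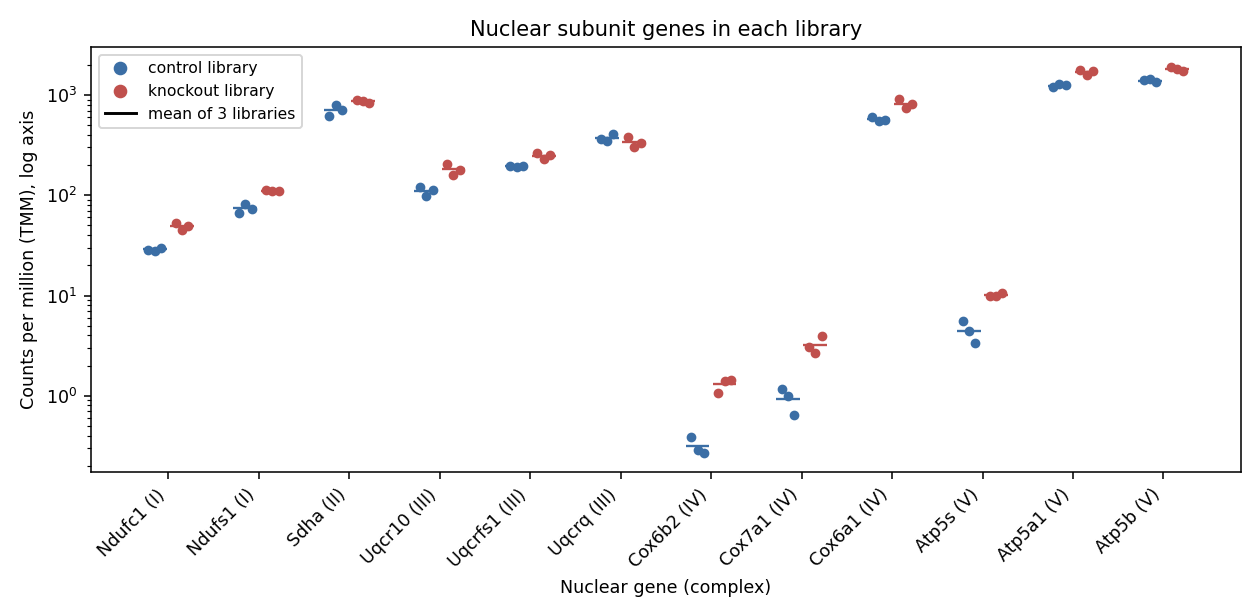
CPM (TMM scaling, log axis) in each of the 3 control and 3 knockout libraries for 12 nuclear genes described in full, ordered by complex; short lines are means. The knockout points lie above the control points for every gene except Uqcrq, whose groups overlap.

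The 13 mitochondrially encoded genes did not share this direction. With TMM scaling 5 of 13 fell and 0 rose, the median log2 fold change was -0.37 and all 13 were below 0, whereas with library size alone 0 fell, 4 rose and the median was 0.22. Over all tested genes 13.0% fell with TMM, and with library size alone 50.9% rose and 4.08% fell. In the higher direction 0 had an unadjusted p under 0.05 with TMM and 0 were called by DESeq2, which called 5 as lower. The authors' deposited table marks 5 as lower and 0 as higher. Without single libraries the number that fell was 6 (control replicate 1), 3 (control replicate 2), 4 (control replicate 3) and 3 (knockout replicate 1, 2 or 3). mt-Cytb and mt-Nd4 were called in all 6 of these fits, mt-Nd2 in 5, mt-Atp6 in 3 and mt-Co1 in 1.

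**Figure D3:**
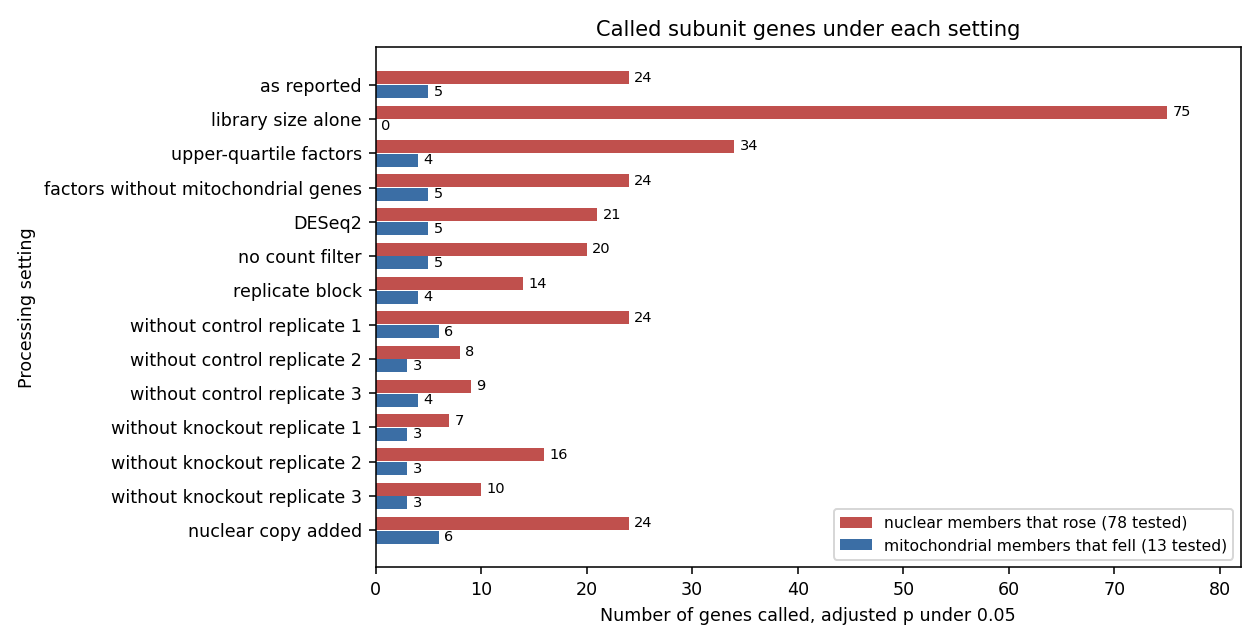
Number of nuclear members that rose (of 78 tested) and of mitochondrial members that fell (of 13 tested) under each processing setting, with the number beside each bar. As reported they are 24 and 5; library size alone gives 75 and 0, and leaving out 1 library gives 7 to 24 and 3 to 6.

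mt-Cytb, the only mitochondrial gene of complex III and the protein that binds ubiquinol (mitochondrial genome, 14145 to 15288, plus strand), had 14724, 13104 and 13549 CPM in the controls, against 7765, 7792 and 8096 CPM in the knockouts. The groups lay far apart, and it fell by 0.81 on the log2 scale (SE 0.10, edgeR adjusted p = 0.00193), a difference that was -0.21 and did not pass with library size alone (edgeR adjusted p = 0.107). mt-Nd4, a proton-pumping subunit of complex I (10167 to 11544, plus strand), had 6008, 5335 and 6014 CPM against 3817, 3602 and 3688 CPM. It fell by 0.64 (SE 0.11, edgeR adjusted p = 0.00507) with TMM and stood at -0.05 with library size alone. mt-Nd2, also of the pumping arm (3914 to 4951, plus strand), had 8025, 7936 and 7677 CPM against 5991, 5459 and 4890 CPM. It fell by 0.53 (SE 0.11, edgeR adjusted p = 0.0134) with TMM, and the sign turned to 0.05 with library size alone. mt-Co1, the catalytic subunit of complex IV (5328 to 6872, plus strand), had 29888, 30304 and 29864 CPM against 23571, 22108 and 23859 CPM. Its fall of 0.37 (SE 0.10, edgeR adjusted p = 0.0268) turned to 0.22 with library size alone and did not pass with upper-quartile factors (-0.30, edgeR adjusted p = 0.0584). mt-Atp6, the channel subunit of complex V (7927 to 8607, plus strand), had 155, 107 and 119.7 CPM against 87.1, 81.5 and 77.1 CPM, with -0.64 (SE 0.15, edgeR adjusted p = 0.0199) under TMM and -0.04 with library size alone. In these 5 genes all knockout libraries were below all controls on the TMM scale. With mt-Nd4l this held for 6 of the 13, beside 22.4% of all tested genes.

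The other 8 did not pass with TMM scaling. The complex I genes mt-Nd1, mt-Nd5 and mt-Nd6 were the nearest to no difference, at -0.01, -0.07 and -0.04, with overlapping groups. mt-Nd1 (2751 to 3707, plus strand) had 6666, 5445 and 5595 CPM in the controls, against 6221, 5455 and 5871 CPM in the knockouts. mt-Nd5 (11742 to 13565, plus strand) had 4765, 3628 and 3798 CPM against 3802, 3788 and 4015 CPM. mt-Nd6 (13552 to 14070), the only member on the minus strand of the mitochondrial genome, had 1437, 806 and 952 CPM against 1060, 1007 and 1045 CPM. In all 3 genes control replicate 1 was the highest library, and with library size alone they turned to 0.58, 0.53 and 0.56 and passed as higher. mt-Co2 (-0.18) and mt-Co3 (-0.31), the other core subunits of complex IV, and mt-Nd3 (-0.13) and mt-Nd4l (-0.55), small subunits of complex I, did not pass. mt-Co2 had 252, 222 and 228 CPM in the controls, against 193, 226 and 200.2 CPM in the knockouts, and mt-Co3 had 133, 121 and 183 CPM against 133, 116 and 103 CPM. mt-Nd3 had 15.7, 9.11 and 11.5 CPM against 11.8, 11.1 and 10.4 CPM, and mt-Nd4l 10.1, 10.0 and 11.6 CPM against 7.17, 9.28 and 5.21 CPM. Of these 4 genes only mt-Nd4l had groups that did not overlap. mt-Co2 turned to 0.41 with library size alone and passed there. mt-Atp8, a small subunit of complex V (7766 to 7969, plus strand), was read at 9, 172 and 237 counts in the controls, against 26, 71 and 26 in the knockouts. Its value of -2.45 (SE 1.06, edgeR adjusted p = 0.144) became -3.01 (edgeR adjusted p = 0.00288) without control replicate 1. The mitochondrial ribosomal RNAs mt-Rnr1 and mt-Rnr2 are encoded on the plus strand, upstream of these genes, which except for mt-Nd6 share that strand. The RNAs had -0.19 and -0.39 and were not called.

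Per length of gene, the mitochondrial genes fell into a high and a low set in every library. In the controls mt-Co1 was highest at 19430 CPM per kb, followed by mt-Cytb (12056), mt-Nd2 (7591), mt-Nd1 (6167), mt-Nd4 (4199), mt-Nd5 (2228) and mt-Nd6 (2052). The levels of mt-Nd5 and mt-Nd6 overlapped across libraries. Then came a wide step down to mt-Co2 (342), mt-Atp6 (187), mt-Co3 (186), mt-Nd4l (35.5), mt-Atp8 (35.0) and mt-Nd3 (34.8 CPM per kb). All 6 genes of the low set lie in 1 stretch between mt-Co1 and mt-Nd4, and chromosome 1 of mm10 holds 7 rows annotated as unprocessed pseudogenes (24611535 to 24616197) in the reverse order, whose lengths match those of mt-Co2, mt-Atp6, mt-Co3, mt-Nd3 and mt-Nd4l to a few bases and are shorter for mt-Co1 and mt-Nd4. These rows held 37.5 to 49.3% of the summed counts for mt-Co2, 70.9 to 79.6% for mt-Atp6, 39.5 to 47.0% for mt-Co3, 34.5 to 44.0% for mt-Nd3 and 48.3 to 66.9% for mt-Nd4l, but 0.3 to 0.5% for mt-Co1 and 1.2 to 1.9% for mt-Nd4. The annotation and the counts do not show which copy a read came from, so levels of the low set are uncertain. Adding these rows to their mitochondrial genes, a step chosen after the data were seen, gave 6 genes that fell with TMM scaling, the added one being mt-Nd4l at -0.54 (edgeR adjusted p = 0.0452). mt-Atp6 was then at -0.71, and its pseudogene row alone was at -0.73 (edgeR adjusted p = 0.00859). The spans of mt-Atp8 and mt-Atp6, of mt-Nd4l and mt-Nd4, and of mt-Nd5 and mt-Nd6 also overlap by a few bases.

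**Figure D4:**
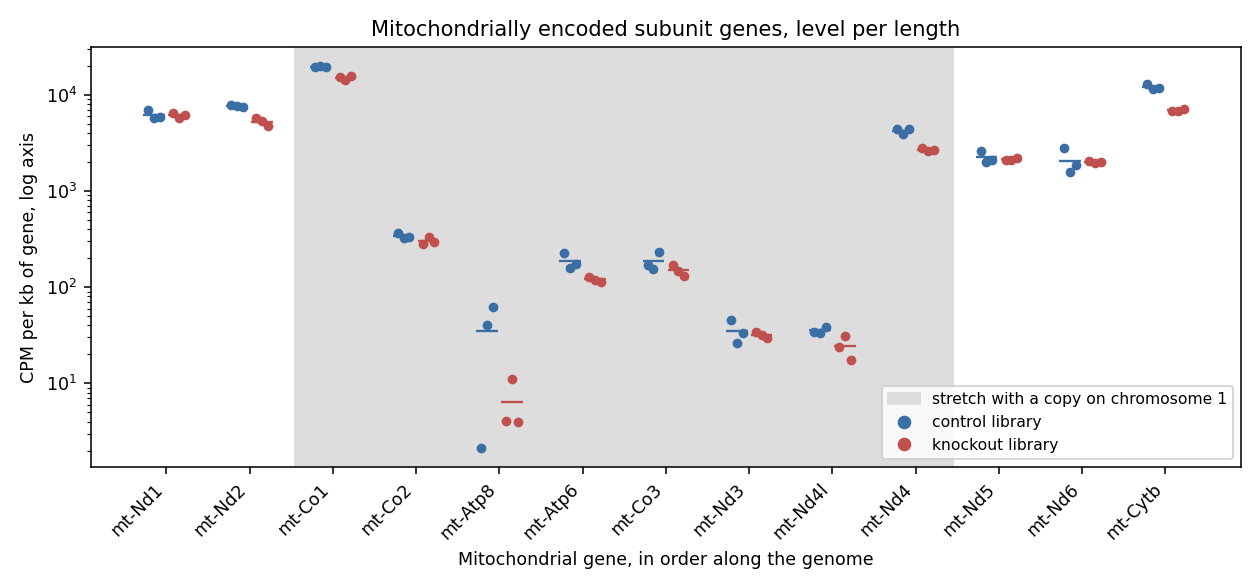
CPM per kb of gene (TMM scaling, log axis) of the 13 mitochondrially encoded genes in genome order, in each of the 3 control and 3 knockout libraries, with means as short lines. The shaded stretch, which has a copy on chromosome 1, runs from mt-Co1 to mt-Nd4. These 2 belong to the high set, and the 6 genes of the low set lie between them. Of the shaded genes only mt-Atp8 has no pseudogene row of its own in that copy. On this scale the knockout points are all below the controls for mt-Nd2, mt-Co1, mt-Atp6, mt-Nd4l, mt-Nd4 and mt-Cytb (22.4% of all tested genes did so). Of these 6, mt-Nd2, mt-Co1 and mt-Nd4l have a fold change above 0 with library size alone.

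A ratio taken within a library does not depend on how libraries are scaled. Summed nuclear counts divided by summed mitochondrial counts were 0.170, 0.182 and 0.183 in the controls, against 0.305, 0.282 and 0.290 in the knockouts, so the balance was shifted towards nuclear transcripts by 1.64-fold in the means, without overlap. Without mt-Co1 and mt-Cytb, the members with the most counts, the ratios were 0.446, 0.516 and 0.507 against 0.754, 0.708 and 0.756. Each complex with subunits from both genomes had the same order. Complex I had 0.107, 0.123 and 0.123 in the controls, against 0.176, 0.163 and 0.179 in the knockouts, complex III 0.0818, 0.0886 and 0.0925 against 0.193, 0.162 and 0.17, and complex IV 0.0781, 0.0695 and 0.0757 against 0.131, 0.116 and 0.118. Complex V, whose mitochondrial genes are in the low set, had 29.8, 40.5 and 35.3 against 71.2, 66.1 and 75.6. As shares of all gene counts, nuclear members went from 0.95 to 1.04% in the controls to 1.67 to 1.95% in the knockouts, and mitochondrial members went from 5.56 to 5.69% to 5.93 to 6.57%. These shares are relative to each library's total, of which albumin alone held 1407824 to 1572518 counts in the controls, against 431347 to 665057 in the knockouts. The ratio shows unequal change and not which side moved. With library size alone the median log2 fold change was 0.83 for nuclear and 0.22 for mitochondrial members. It was 0.60 for all tested genes and 0.57 for the 77 mitochondrial ribosomal protein genes. The typical gene thus also stood above the mitochondrial members, and the shift is not particular to nuclear subunit genes.

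**Figure D5:**
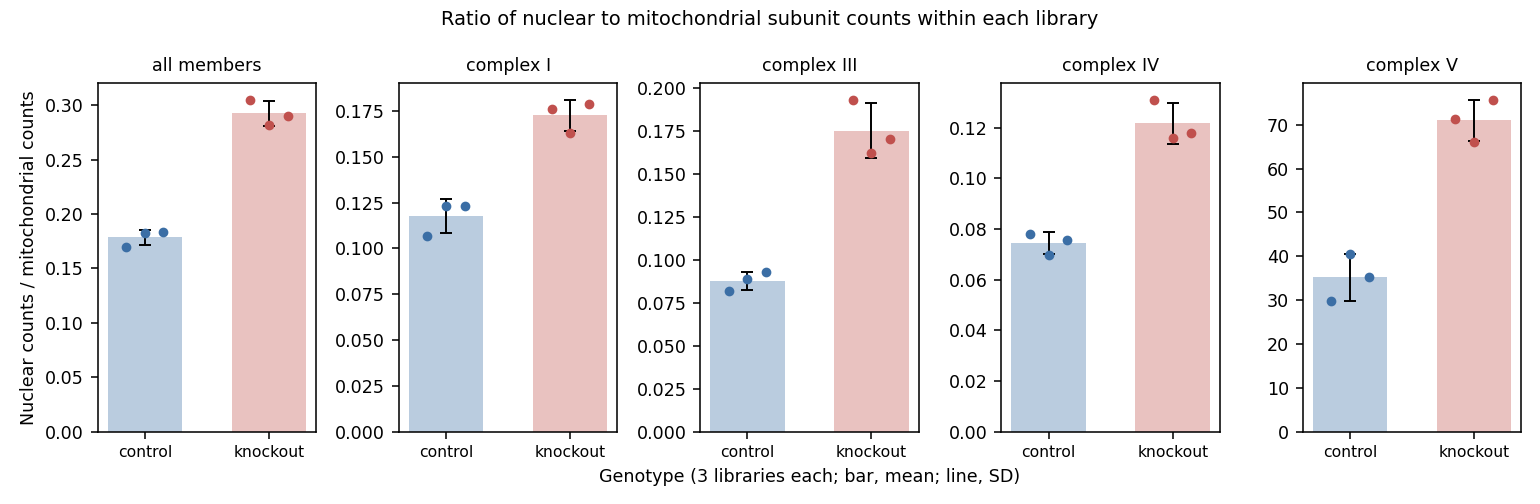
Summed counts of nuclear members divided by summed counts of mitochondrial members in each library, for all members and for each complex with subunits from both genomes; points are libraries, bars are means and lines are SD (n = 3), and each panel has its own vertical axis. Every knockout library lies above every control in all panels, at 0.282 to 0.305 against 0.170 to 0.183 for all members.

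Genes that build and serve the complexes were counted from the same fit over 11 lists, to be read beside the 12.6% of all tested genes that rose and the 13.0% that fell. Of 15 complex I assembly genes, 1 rose (Ndufaf7, 0.59) and 1 fell (Ecsit, -0.53), with a median of -0.00. Of 4 complex II assembly genes 1 fell (Sdhaf3, -0.76), and of 6 for complex III 1 rose (Uqcc3, 0.47). Of 16 complex IV assembly genes 2 rose, Cox15 for heme A (0.63) and Cox14 (0.63), and 3 fell, Cox19 for copper (-1.01), Coa5 (-0.53) and Coa6 (-0.44). Of 4 genes for complex V assembly and inhibition 3 rose, Atpaf1 (0.58), Tmem70 (0.38) and the inhibitor Atpif1 (1.15, at 1.13 and 2.50 CPM), with a median of 0.48. Of 19 carriers and subunits outside the name rule 2 rose, both of ubiquinone synthesis (Coq3, 0.86, and Coq2, 0.49). Cytochrome c, Cycs, had 0.37 (edgeR adjusted p = 0.107). With library size as the only scale, none of the falls in these lists passed: Ecsit and Coa5 turned to 0.06 each and Coa6 to 0.16.

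Among 27 tested genes for the upkeep and expression of mitochondrial DNA, 0 rose and 4 fell, with a median of -0.21, beside 13.0% of all tested genes that fell. Those were the mitochondrial RNA polymerase Polrmt (51.0 to 37.9 CPM, -0.43, edgeR adjusted p = 0.0202), Hsd17b10, a subunit of mitochondrial RNase P (285 to 133 CPM, -1.10, edgeR adjusted p = 0.000777), the RNA-binding protein Lrpprc (-0.47) and the topoisomerase Top1mt (-0.53). With library size alone Polrmt, Lrpprc and Top1mt turned to 0.16, 0.12 and 0.06, and only Hsd17b10 still fell, at -0.51 (edgeR adjusted p = 0.00526). The 77 mitochondrial ribosomal proteins had a median of -0.02, with 2 that rose and 4 that fell, among them Mrps5 (-0.49, but 0.10 with library size alone) and Mrps10 (-0.65, and -0.06). Of 14 TCA cycle genes 6 rose and 0 fell, with a median of 0.33 and beside 12.6% of all tested genes that rose, among them malate dehydrogenase Mdh2 (213 to 541 CPM, 1.34, edgeR adjusted p = 0.00121). Of 7 genes that move ATP, ADP and phosphate across the membranes 3 rose, the ADP/ATP carriers Slc25a4 (1.43) and Slc25a5 (0.72) and the uncoupling protein Ucp2 (1.19), and 1 fell, Vdac3 (-0.31, but 0.28 with library size alone). Ucp2 is abundant in macrophages, whose markers rose in the same libraries, and their part in it was not tested. Of 16 regulators of mitochondrial genes 2 rose, the nuclear receptors Esrra (37.6 to 76.0 CPM, 1.01, edgeR adjusted p = 0.00216) and Ppard (0.51), and 2 fell, Rxra (699.9 to 309.6 CPM, -1.18, edgeR adjusted p = 0.00151, and -0.59 with library size alone) and the ETS factor subunit Gabpa (-0.62, and -0.03 with library size alone). The coactivator Ppargc1a had 0.37 (edgeR adjusted p = 0.29) and the factor Nrf1 had -0.14 (edgeR adjusted p = 0.616).

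The ChIP lists gave 22793 entries in the control library and 1649 in the knockout library. Each entry is a called region with 1 summit, and a region with more than 1 summit is entered more than once. The sample titles name RNA poll III as the target while the design text speaks of Lcmr1, so the protein pulled down is uncertain here. With 1 library per genotype there is no replicate check and no test. In the control list, 36 of 81 nuclear members (44.4%) had a region whose summit lay within 1 kb of the gene start, beside 33.3% of all tested protein-coding genes. In the knockout list 0 of 81 did, beside 1.86% of those genes. The much shorter list lowers every such count, and ranks or folds of the lists were not compared. Complex I had 15 of 35 members with a control region, complex II 3 of 4, complex III 4 of 8, complex IV 6 of 18 and complex V 8 of 16. Of the 24 nuclear genes that rose 12 had one, and of the 54 that did not pass 24 had one (44.4%). The median fold over background of these regions, a value of the authors' caller, was 6.15, beside 6.14 for all genes with a region.

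The highest fold at a member start was 11.5 at Atp5s, whose region ran from 69724647 to 69725423 on chromosome 12 with its summit 70 bases after the start, so that it covered the Atp5s promoter printed above. Cox6a1 followed at 9.23 (chromosome 5, 115348758 to 115349086, summit 71 bases after the start), with a region that covered the ETS element but not the NRF1 core of the printed stretch. The Ndufa7 region had 6.43 (chromosome 17, 33824447 to 33824758, summit 53 bases after the start). Summits lay after the start in 25 of the 36 members and before it in 11. Of the members whose RNA did not pass the test, Atp5g3 (8.83), Cox4i1 (8.60) and Ndufs6 (8.33) had comparable folds. On the mitochondrial genome the control list held 0 entries and the knockout list 8, with folds of 1.40 to 1.88. They lay in mt-Rnr1, mt-Nd1, mt-Co1, mt-Nd4, mt-Nd5 and mt-Cytb. The entries in mt-Co1 are summits of 1 region (5512 to 6483), as are those in mt-Nd5 (12448 to 13176). These low folds were below the median of the knockout list, 5.87.

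Promoters of 67 of the 81 nuclear members, 250 bases before to 50 after the start, were found in the RefSeq table (GRCm38.p6) and searched on both strands for 4 motifs. The NRF1 core GCATGCGC was in 10 (14.9%), the ETS element CCGGAAG, bound by GABP, in 15 (22.4%), the YY1 element AAGATGGC in 9 (13.4%) and the ERR element TCAAGGTCA in 2 (2.99%). No motif contains another, and the NRF1 core matches on both strands at neighbouring positions where it sits in a palindrome, as in Cox6a1. Among all 27025 promoters of the table the shares were 2.8%, 9.12%, 2.88% and 0.407%, and among the 10177 whose gene is protein-coding and was tested here they were 5.22%, 17.5%, 4.54% and 0.275%. Of the 22 promoters of genes that rose, 2 held the NRF1 core, 4 the ETS element, 5 the YY1 element and 0 the ERR element; of the 44 promoters of genes that did not pass, the numbers were 8, 11, 4 and 2. Both groups of promoters thus held NRF1, ETS and YY1 letters. These are descriptions of letters in a window, not of binding.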

How the data were processed

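RNA libraries (3 per genotype) and ChIP libraries (1 per genotype) were analysed from the deposited files. The authors deposited whole-number counts per Ensembl gene with mm10 positions, for which the submitters' processing notes name the tools HISAT2 2.1.0, HTSeq 0.6.0 and Bowtie2 2.2.3; the part of each tool, like the strand setting, was not given in the sources used here. The same deposited table holds the authors' fold change (ratio), log2 fold change, p-value and adjusted p-value. Each ChIP list, in narrowPeak layout, gives a score, a fold over background (signal ratio), and −log10 p and q values per entry as deposited by the authors. MACS2 and BWA are named in the submitters' processing notes. Groups came from the sample titles.

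After filterByExpr (minimum count 10, total 15) and TMM scaling, 15135 genes were tested with edgeR 4.0.16 (R 4.3.3; robust quasi-likelihood test, two-sided, genotype as the only term). P-values were adjusted by Benjamini-Hochberg and called at 0.05. The biological coefficient of variation common to the genes was 0.235, and the code was tested on simulated data. Total counts of 22191786 to 26595249 per library limit the rare genes: 3 members did not pass the filter. Replicates differed beyond sampling noise (chi-square per degree of freedom 6.84 to 135). Control replicate 1 stood apart, at 135 against control replicate 2 and 129 against control replicate 3. Control replicates 2 and 3 had 6.84 between them, and the knockout pairs 24.8 to 49.5. The summed level of 6 bile duct markers was 167 CPM in control replicate 1, against 41 and 49.3 CPM in control replicates 2 and 3. The part of this in the difference between replicates was not tested. Members and lists were chosen with earlier results of these data known. Each member could be named; values per library are given for up to 2 of the largest called changes in each direction and the most abundant nuclear member of each complex and for all mitochondrial genes, and from each other list up to 2 genes past the test are named, those with the smallest adjusted p. Other names, printed promoters and single low members were chosen after their values were seen. A few genes taken by the rule are left unnamed but stay in the counts and medians. List entries not matched in the table were not analysed here. Alternatives were library size alone, upper-quartile factors, factors without mitochondrial genes, no count filter, DESeq2 1.42.0, a replicate block, each library left out, and, added after seeing the data, the chromosome 1 pseudogene counts added to their mitochondrial genes. For ChIP a summit within 1 kb of a start counted, with 250 bases, 5 kb, a fold of 5 or any overlap as alternatives.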

Additional observations from a re-analysis of the deposited data

How the results depend on the processing

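With library size alone, 8328 genes were called against 3865, 75 nuclear members rose against 24, 4 mitochondrial members rose against 0 and 0 fell against 5. Under that setting the median of the mitochondrial members turned to 0.22, and single genes turned to 0.46 (Uqcrq), 0.58 (mt-Nd1), 0.05 (mt-Nd2), 0.22 (mt-Co1), 0.41 (mt-Co2), 0.53 (mt-Nd5) and 0.56 (mt-Nd6). Leaving out 1 library gave 2236 to 4921 genes, 7 to 24 nuclear members that rose, 3 to 6 mitochondrial members that fell, and -1.84 to -1.30 for Med19. The nuclear members that fell numbered 0 under every alternative run, and those with a control ChIP region 25 to 41. Of the 29 member calls, 28 kept their direction and call with upper-quartile factors, 25 with DESeq2 and 24 without the count filter.

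The labels do not say whether the replicate numbers pair the samples. Same-numbered libraries had correlations of 0.11, 0.052 and 0.094 between their deviations from the group means. Every library correlated best with its own number, a hint from the data and not from the design. Pairing is thus unresolved. With the replicate block 3468 genes were called, 14 nuclear members rose and 4 mitochondrial members fell, and 17 of the 29 member calls were kept. Among those lost were Atp5b and Atp5a1 (adjusted p 0.0718 and 0.053). Depth limits mt-Atp8, Ndufs3 and the rare isoforms, and counts cannot tell the chromosome 1 copies from mitochondrial genes.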
